A study of Mus musculus with 3 samples.

Results

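Macrophages from muscle wounds treated with urinary bladder matrix (UBM, a scaffold made from decellularised bladder) were set against macrophages from wounds given saline, gene by gene, inside 2 of the 9 cell clusters that the authors had defined. The clusters, FP1 and RP3, are those in which both treatments had at least 50 cells. FP1 held 99 UBM and 72 saline cells, and RP3 held 200 UBM and 68 saline cells. Together these are 439 of the 2621 UBM and saline cells and of the 4374 cells of the series. All 13242 genes of the deposited table were compared. Differences found in both clusters were separated from those of 1 cluster, and both from differences over all cells, which also depend on how the cells were spread over the clusters.

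The cells were sorted as macrophages from the quadriceps of mice, 1 week after volumetric muscle loss, a surgical wound in which part of the muscle is cut away. The UBM wounds received urinary bladder matrix, the saline wounds received saline, and a further group received polycaprolactone (PCL), a synthetic polyester. Each treatment is 1 library made with the 10x droplet platform, which counts molecules by unique molecular identifiers (UMIs) at the 3' end of transcripts. Strain, sex, age, the number of animals behind a library and the meaning of the cluster names are not stated by the labels.

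Wound macrophages arise from blood monocytes and from cells resident in the tissue. Interleukin-4 and interleukin-13 drive an alternative activation that is marked in mice by arginase 1, resistin-like alpha and chitinase-like proteins, whereas bacterial products and interferons drive an inflammatory state with antigen presentation and cytokines. Low oxygen stabilises hypoxia-inducible factor, which raises the genes of glycolysis in macrophages as in other cells. Scaffolds of extracellular matrix are known for drawing type 2 immune cells into muscle wounds.

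With 1 library on each side there is no replicate, so no test was made and no p-value is given. Levels are UMIs per 1000000 UMIs of a library's cells in a cluster (CPM). Folds are ratios of CPM with nothing added, and intervals in parentheses are 95% intervals that cover counting error only, not the spread between mice or libraries. Log2 ratios have 10 CPM added to both sides. A gene counted as higher or lower when it was at least 2-fold apart after adding 10 CPM and reached 50 CPM in the higher library. This is a rule of size and not a test. FP1 and RP3 cells of 1 library share its animals, its free RNA and its depth, and the authors' clusters were made from these same counts, so the clusters are no replicates of each other.

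The FP1 sums held 793364 UMIs for UBM and 488438 for saline, and the RP3 sums 970420 and 268609. Median UMIs per cell were 5618 and 5364 in FP1 and 4194 and 3981 in RP3. Median mitochondrial shares lay between 2.76% and 4.44% in the 4 groups of cells. A count of 0 allows up to 3.78 CPM in UBM and 6.14 CPM in saline cells of FP1, and up to 3.09 and 11.2 CPM in RP3, counting 3 UMIs as the limit. All 10 macrophage markers were detected in both clusters of both libraries. Their summed level was 10629 CPM in UBM and 29107 CPM in saline cells of FP1, and 29118 and 29913 CPM in RP3. The summed markers of T and NK cells, of B cells and of eosinophils and mast cells each stood at 29.0 CPM or less in all 4 groups of cells. Only 6 of 12, 2 of 8 and 3 of 10 of these markers were in the deposited table. Other sums were higher. In FP1 endothelial markers stood at 300 CPM in UBM and 178 CPM in saline, mostly Fabp4. Erythrocyte and platelet markers stood there at 135 and 24.6 CPM, mostly Ppbp. Dendritic markers stood at 2107 to 4225 CPM in the 4 groups, mostly Cst3. No cell barcode was shared between the libraries within FP1 or RP3.

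Inside FP1, 117 of 2864 genes were at least 2-fold higher with UBM (4.09%) and 159 were lower (5.55%). Inside RP3, 111 of 2853 genes were higher (3.89%) and 218 were lower (7.64%). The direction of the RP3 count depended on scaling. Trimmed-mean scaling, which put the UBM to saline factor at -0.24 on the log2 scale in RP3, gave 207 higher and 127 lower genes, and the median of ratios gave 224 and 125. In FP1 the trimmed mean gave 134 and 129. Ccl8 and Retnla alone took 6.16% of all UMIs of RP3 in UBM and 1.11% in saline.

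Among the 2250 genes that reached 50 CPM in both clusters, 331 passed 2-fold in at least 1. Of these, 24 were higher with UBM in both clusters (1.07%) and 35 were lower in both (1.56%). In FP1 alone of these 2 clusters, with less than 1.5-fold between libraries in RP3, 22 genes were higher (0.978%) and 48 were lower (2.13%). In RP3 alone, 50 were higher (2.22%) and 41 were lower (1.82%). A further 3 genes went opposite ways (0.133%), and 108 passed 2-fold in 1 cluster and lay between 1.5-fold and 2-fold in the other.

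**Figure D1:**
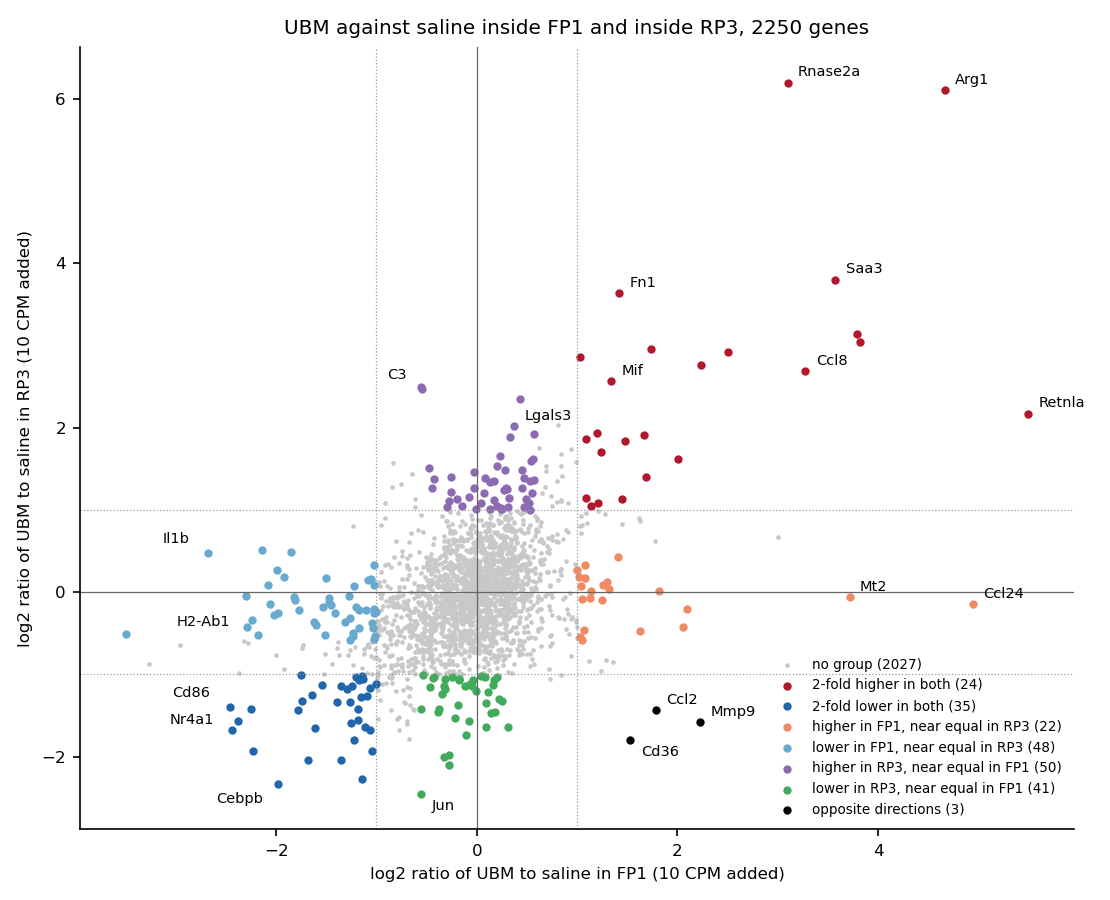
Log2 ratio of UBM to saline, with 10 CPM added, in FP1 (horizontal axis) and RP3 (vertical axis) for the 2250 genes with 50 CPM in both clusters, 1 point per gene. Colours mark the 24 genes higher in both, the 35 lower in both, those of 1 cluster and the 3 opposite genes, and the remaining 2027 genes, in none of these groups, are grey; there is 1 library on each side and no error bar.

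The genes higher with UBM in both clusters were led by Arg1 and included Slc7a2, Retnla, Chil3, Ear2 and Rnase2a, all genes tied to alternative activation. Arg1 encodes arginase 1, which splits arginine into ornithine and urea (chr10:24915221-24927484, minus strand, GRCm38). It stood at 2949 CPM in UBM and 106 CPM in saline cells of FP1, 27.7-fold higher (21.1 to 37.2). In RP3 it stood at 931 CPM in UBM and 3.72 CPM in saline, the latter from 1 UMI, a ratio of 249.9 (44.7 to 9883). Slc7a2 encodes a transporter that carries arginine into the cell. Its FP1 levels were 198 and 26.6 CPM, 7.44-fold higher with UBM (4.22 to 14.3). In RP3 the UBM level was 66.0 CPM and saline had 0 UMIs, so it was at least 5.9-fold higher against the floor of 3 counts for that library and cluster. That both genes were higher with UBM in both clusters follows from how the group was chosen. Of the 12 genes of the arginine and polyamine list that were measured in FP1, 2 stood higher there by 1.5-fold or more and 3 lower, near the shares of all genes there, 18.8% and 22.3%. In RP3 3 of 10 were higher and 1 lower, where 18.2% and 32.0% of all genes were.

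Retnla encodes resistin-like alpha, a secreted protein of type 2 inflammation (chr16:48842551-48844461, plus strand). Its FP1 level was 3779 CPM in UBM and 73.7 CPM in saline, 51.3-fold higher (36.9 to 73.3), and 1 cell of 19682 UMIs gave 46.3% of the UBM UMIs. In RP3 it stood at 23642 and 5246 CPM, 4.51-fold higher (4.27 to 4.76). Chil3, which encodes the chitinase-like protein Ym1, stood at 924 and 57.3 CPM in FP1, 16.1-fold higher (11.1 to 24.4), with 46.2% of the UBM UMIs in that same cell. Its RP3 level was 78.3 CPM in UBM against 0 UMIs in saline, at least 7.01-fold higher, and 42.1% of those UMIs came from 1 cell. Rnase2a encodes a ribonuclease of the eosinophil-associated family, whose near-identical copies share reads, so its level is uncertain. It was at 0 UMIs in saline cells of both clusters and at 75.6 CPM in FP1 and 722 CPM in RP3 with UBM, at least 12.3-fold and 64.7-fold higher. The cell of 19682 UMIs also gave 30 of the 60 Rnase2a UMIs of FP1, and without the top cell the log2 ratio there was 2.29 in place of 3.10. Ear2 of the same family stood at 60.5 and 24.6 CPM in FP1 and at 89.7 and 3.72 CPM in RP3. Over the alternative activation list, 14 of 17 measured genes were at least 1.5-fold higher in FP1, where 18.8% of all 7680 genes were, and none was lower. In RP3 9 of 15 were higher, where 18.2% of all 7620 genes were, and none was lower. The median log2 ratios were 1.60 and 0.67.

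Ccl8 encodes a chemokine made by resident macrophages that draws type 2 T cells in mice (chr11:82115185-82116799, plus strand). It stood at 37982 CPM in UBM and 5893 CPM in saline cells of RP3, 6.44-fold higher (6.13 to 6.78). In FP1 it stood at 1613 and 158 CPM, 10.2-fold higher (8.13 to 13.1). The FP1 level in UBM was 14.7% of that in the rest of the UBM library, the lowest such share of any gene with 500 CPM there. If 14.7% of the profile of the rest of the library is subtracted from these cells, no Ccl8 is left in them by construction, and whether FP1 cells themselves made it was not tested. In RP3 the largest amount that the counts allowed was 1.43% in UBM and 3.35% in saline, and the log2 ratio of Ccl8 was 2.66 after subtraction. Measured against 2 times the lowest share in the same group of cells, 22 of the 24 shared genes stood above it in UBM cells of FP1, all but Ccl8 and Rnase2a, and 20 did in saline cells. In RP3 all 24 did in UBM cells and 15 in saline cells.

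Genes of glycolysis and of the response to low oxygen formed another group among the shared higher genes. Mif, Eno1, Bnip3 and Slc16a3 stand in the list fixed for that programme, and Fam162a and Hilpda are further known targets of hypoxia-inducible factor. Mif, a cytokine (chr10:75859353-75860240, minus strand), stood at 1518 CPM in UBM and 594 CPM in saline cells of FP1, 2.56-fold higher (2.25 to 2.92). In RP3 it stood at 490.5 and 74.5 CPM, 6.59-fold higher (4.22 to 10.9). Eno1 encodes enolase, a glycolytic enzyme. Its levels were 923 and 395 CPM in FP1, 2.34-fold higher (1.99 to 2.75), and 327 and 78.2 CPM in RP3, 4.18-fold higher (2.69 to 6.84). Bnip3, which serves the removal of mitochondria, stood at 243 and 53.2 CPM in FP1, 4.57-fold higher (3.03 to 7.17), and at 112 and 29.8 CPM in RP3, 3.77-fold higher (1.85 to 8.96). Fam162a, also known as a hypoxia-induced protein of mitochondria, stood at 213 and 59.4 CPM in FP1, 3.59-fold higher (2.41 to 5.52). Its RP3 levels were 55.6 and 14.9 CPM, the latter from 4 UMIs, 3.74-fold higher (1.38 to 14.2). Hilpda, a protein of lipid droplets, stood at 362 and 147 CPM in FP1, 2.45-fold higher (1.89 to 3.22), and at 71.1 and 14.9 CPM in RP3, 4.77-fold higher (1.78 to 18.0). Slc16a3 encodes the lactate exporter MCT4. It stood at 132 and 40.9 CPM in FP1, 3.23-fold higher (1.99 to 5.51), and at 66.0 and 11.2 CPM in RP3, the latter from 3 UMIs, a ratio of 5.91 (1.93 to 29.4). That all 6 genes were higher in both clusters follows from how the group was chosen, and the intervals cover counting error only.

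Over the whole list of glycolysis and hypoxia genes, 22 of the 29 measured in FP1 and 23 of the 27 measured in RP3 were at least 1.5-fold higher, against 18.8% and 18.2% of all genes, with 1 lower in each. The median log2 ratios were 1.10 and 1.36. The medians of all genes with 10 CPM were -0.03 in FP1 and -0.14 in RP3. Pgk1, phosphoglycerate kinase, stood at 149 and 14.3 CPM in FP1, 10.4-fold higher (4.88 to 26.4), and at 41.2 CPM against 0 UMIs in RP3, at least 3.69-fold higher. Gapdh was 1.62-fold higher in FP1 and 2.99-fold higher in RP3. Ldha, lactate dehydrogenase, stood at 1011 and 432 CPM in FP1 and at 384 and 189.9 CPM in RP3. The member that went the other way in both clusters was Pfkfb3, a regulator of glycolytic flux, at 12.6 against 22.5 CPM in FP1 and 41.2 against 119 CPM in RP3.

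Promoter sequences are shown for those shared higher genes of this group that held the core of the hypoxia response element, ACGTG, searched on both strands, so that its place can be seen beside the values above. The sequences are from RefSeq on GRCm38.p6, run 5' to 3' on the gene's strand from 250 bases before the start of transcription to 50 bases from it on, and have the core in capitals (CACGT where it lies on the opposite strand, and CACGTG where both strands overlap).
Bnip3 promoter (chr7:138909457-138909756, minus strand): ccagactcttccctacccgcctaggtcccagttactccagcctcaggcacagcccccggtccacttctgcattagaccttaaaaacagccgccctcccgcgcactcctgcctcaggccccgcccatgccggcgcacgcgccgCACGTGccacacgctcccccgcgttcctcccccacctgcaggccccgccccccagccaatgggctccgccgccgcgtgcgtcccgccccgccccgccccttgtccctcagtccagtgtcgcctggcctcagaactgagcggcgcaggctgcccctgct
Mif promoter (chr10:75860228-75860527, minus strand): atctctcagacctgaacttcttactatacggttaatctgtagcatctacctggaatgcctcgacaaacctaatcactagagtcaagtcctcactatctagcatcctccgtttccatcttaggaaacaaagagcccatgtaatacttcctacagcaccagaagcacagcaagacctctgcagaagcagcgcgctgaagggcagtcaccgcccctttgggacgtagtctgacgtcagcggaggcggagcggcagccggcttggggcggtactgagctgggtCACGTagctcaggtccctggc
Fam162a promoter (chr16:36071512-36071811, minus strand): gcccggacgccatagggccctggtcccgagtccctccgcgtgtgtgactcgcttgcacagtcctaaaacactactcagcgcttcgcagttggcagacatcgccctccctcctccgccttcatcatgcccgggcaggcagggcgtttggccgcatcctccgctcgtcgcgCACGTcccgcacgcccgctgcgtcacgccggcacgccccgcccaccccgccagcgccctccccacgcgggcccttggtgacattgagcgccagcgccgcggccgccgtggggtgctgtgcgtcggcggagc
Hilpda promoter (chr6:29272376-29272675, plus strand): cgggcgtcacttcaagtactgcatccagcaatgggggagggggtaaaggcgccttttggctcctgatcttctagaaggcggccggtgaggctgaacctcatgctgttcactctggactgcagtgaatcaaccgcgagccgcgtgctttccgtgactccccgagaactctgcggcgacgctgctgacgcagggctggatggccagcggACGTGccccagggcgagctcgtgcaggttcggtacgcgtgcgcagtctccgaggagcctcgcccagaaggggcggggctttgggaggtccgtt
Slc16a3 promoter (chr11:120948817-120949116, plus strand): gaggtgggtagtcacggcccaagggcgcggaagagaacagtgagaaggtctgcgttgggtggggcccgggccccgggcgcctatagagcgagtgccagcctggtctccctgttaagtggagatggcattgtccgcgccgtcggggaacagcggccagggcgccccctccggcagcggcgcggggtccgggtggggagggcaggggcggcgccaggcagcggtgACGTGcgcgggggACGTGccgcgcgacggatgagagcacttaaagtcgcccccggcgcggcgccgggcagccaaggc
The core began at -108 and, on the other strand, -107 from the start in Bnip3, at 29 in Mif, at -81 in Fam162a, at -43 in the second of 2 listed promoters of Hilpda, and at -27 and -14 in Slc16a3. None of the 3 listed promoters of Eno1 held it in this window. The core is short and common: it was found in 19.62% of all 32851 listed promoters, in 27.86% of the 2200 promoters of genes with 50 CPM in both clusters, and in 5 of the 21 promoters of shared higher genes (23.81%). A match describes the letters only.

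The remaining shared higher genes included Fn1, Spp1, Lpl and Saa3. Fn1, fibronectin, stood at 1734 and 643 CPM in FP1, 2.70-fold higher (2.38 to 3.06), and at 532 and 33.5 CPM in RP3, 15.9-fold higher (8.29 to 34.9). Spp1, osteopontin, stood at 7202 and 2154 CPM in FP1, 3.34-fold higher (3.13 to 3.57), where 1 cell gave 32.9% of the UBM UMIs and another 64.3% of the saline UMIs. In RP3 it stood at 329 and 33.5 CPM, 9.81-fold higher (5.10 to 21.7). Lpl, lipoprotein lipase, stood at 2008 and 938 CPM in FP1 and at 121 and 26.1 CPM in RP3. Saa3, an acute-phase apolipoprotein, stood at 693 and 49.1 CPM in FP1, 14.1-fold higher (9.38 to 22.2), with 41.3% of the UBM UMIs in 1 cell, and at 233 and 7.45 CPM in RP3, the latter from 2 UMIs, a ratio of 31.3 (8.56 to 260). F7, coagulation factor VII, stood at 202 and 34.8 CPM in FP1, 5.79-fold higher (3.51 to 10.2), and at 57.7 CPM against 0 UMIs in RP3, at least 5.17-fold higher. Pdia4, a folding enzyme of the endoplasmic reticulum, was 2.43-fold higher in FP1 and 2.25-fold in RP3. Rhoc, a small GTPase, was 2.28-fold higher in FP1 and 2.42-fold in RP3. Gm10073 and AY036118, whose reads may be shared with near-identical copies, were 2.79-fold and 2.34-fold higher in FP1 and 2.24-fold and 2.40-fold in RP3. Hist1h2ap, a histone with such copies, was 22.2-fold higher in FP1, and 1 cell gave 76.0% of its UBM UMIs in RP3.

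The list of FP1 markers held Spp1, Pdpn, Cav1, Mmp19, Fn1 and Arg1, of which Spp1, Fn1 and Arg1 are themselves shared higher genes. In RP3 4 of the 5 measured were at least 1.5-fold higher with UBM (18.2% of all genes), and the lowest log2 ratio was -0.03. The summed level of the list in RP3 was 1824 CPM in UBM and 96.8 CPM in saline, against 12192 and 3028 CPM in FP1. The part of this in the shared differences was not tested. Of the 24 shared higher genes, 6 had more than 25% of their UMIs in 1 cell in a library that was used. Without each gene's top cell in each library, all 24 stayed past 2-fold in both clusters when no minimum level was asked. With the minimum of 50 CPM, 19 of the 24 kept the group. Leaving out the top saline cell also took away the only saline UMI of Arg1 in RP3. In PCL cells of FP1, which were 1036, Arg1 stood at 1512 CPM, Ccl8 at 139 CPM and Retnla at 2.91 CPM.

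**Figure D2:**
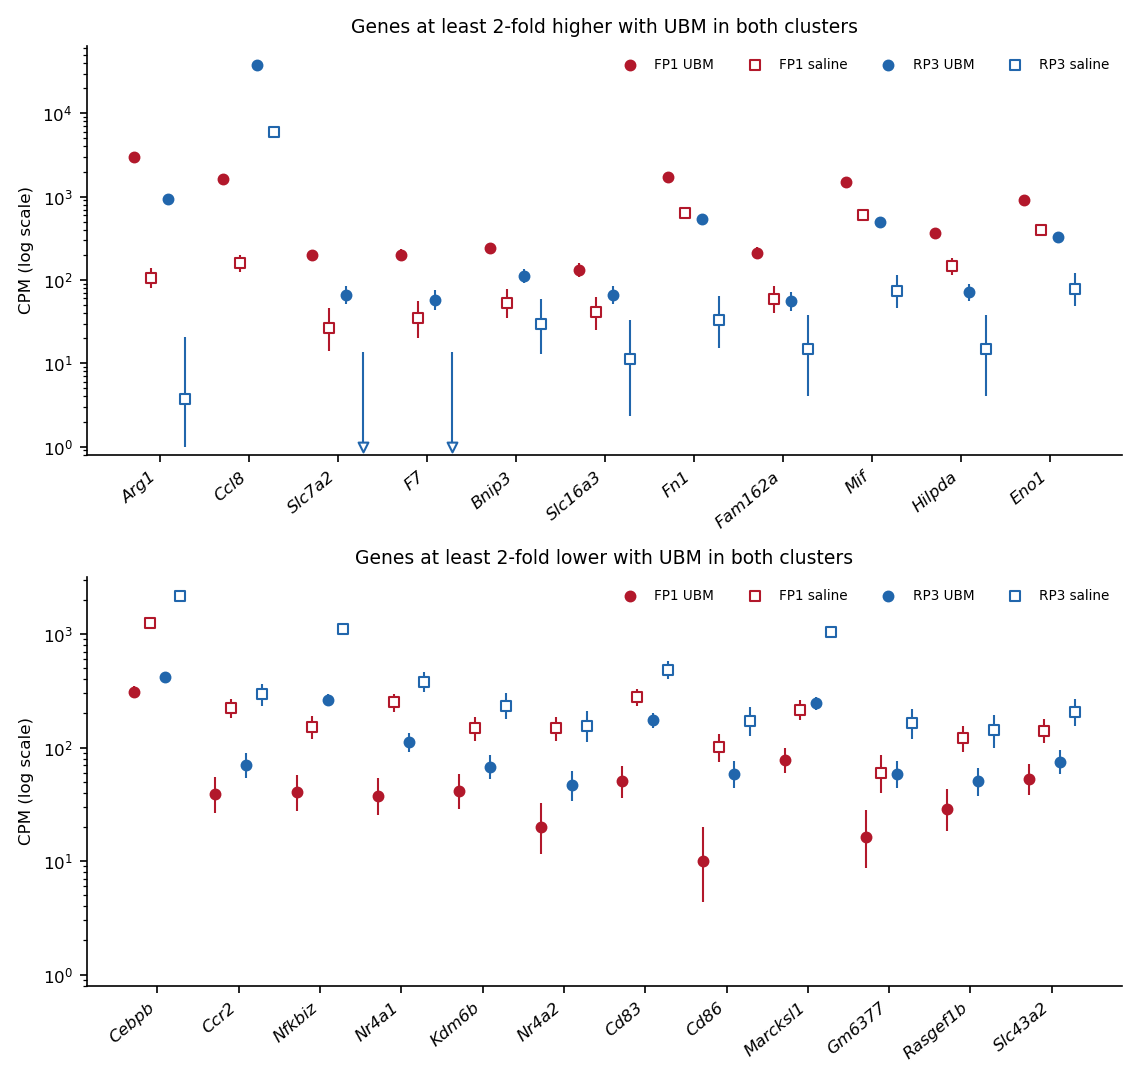
CPM on a log scale in UBM and saline cells, FP1 and RP3 apart, for 11 named genes higher in both clusters and the 12 named genes lower in both; points are the single libraries and bars the exact Poisson 95% interval of the count. Open arrows show the upper limit for Slc7a2 and F7, which had 0 UMIs in saline cells of RP3, and the lower end of the Arg1 interval in saline cells of RP3 is clipped at 1 CPM.

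The genes lower with UBM in both clusters included transcription factors and regulators that respond early to stimulation, a receptor of monocytes and co-stimulatory molecules. Cebpb encodes a transcription factor of the myeloid lineage (chr2:167688915-167690418, plus strand). It stood at 310.1 CPM in UBM and 1251 CPM in saline cells of FP1, 4.03-fold lower (3.47 to 4.70), and at 421 and 2163 CPM in RP3, 5.13-fold lower (4.51 to 5.84). Nr4a1 is an orphan nuclear receptor and an immediate early gene (chr15:101254269-101274795, plus strand). Its levels were 37.8 and 249.8 CPM in FP1, 6.61-fold lower (4.40 to 10.2), and 112 and 379.7 CPM in RP3, 3.38-fold lower (2.56 to 4.47). Its relative Nr4a2 stood at 20.2 and 147 CPM in FP1, 7.31-fold lower (4.21 to 13.5), and at 46.4 and 156 CPM in RP3, 3.37-fold lower (2.16 to 5.25). Atf3, Btg2 and Maff, further early response genes, were 2.35-fold, 3.33-fold and 2.90-fold lower in FP1 and 2.71-fold, 2.41-fold and 9.48-fold lower in RP3.

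Ccr2, the receptor through which monocytes are recruited (chr9:124101950-124113557, plus strand), stood at 39.1 and 221 CPM in FP1, 5.66-fold lower (3.77 to 8.73), and at 70.1 and 294 CPM in RP3, 4.20-fold lower (2.996 to 5.89). Cd86, a co-stimulatory ligand for T cells, stood at 10.1 and 100.3 CPM in FP1, 9.95-fold lower (4.67 to 24.3), and at 58.7 and 171 CPM in RP3, 2.92-fold lower (1.93 to 4.38). Cd83, a surface marker of activated antigen-presenting cells, stood at 50.4 and 278 CPM in FP1 and at 174 and 484 CPM in RP3, 5.52-fold (3.86 to 8.07) and 2.78-fold (2.19 to 3.51) lower. That these genes were lower with UBM in both clusters follows from how the group was chosen. The summed level of the monocyte markers, a list that holds both Ccr2 and Fn1, was 2932 CPM in UBM and 1222 CPM in saline cells of FP1, and 1077 and 573 CPM in RP3. Fn1 was its most abundant member in 3 of these groups of cells and Ccr2 in saline cells of RP3.

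Nfkbiz, an atypical inhibitor of NF-kappaB, stood at 40.3 and 152 CPM in FP1, 3.76-fold lower (2.45 to 5.88), and at 263 and 1113 CPM in RP3, 4.24-fold lower (3.57 to 5.03). Its relative Nfkbid was 2.96-fold lower in FP1 and 4.03-fold lower in RP3. Kdm6b encodes a demethylase of histone H3 that is induced in stimulated macrophages. It stood at 41.6 and 147 CPM in FP1, 3.54-fold lower (2.32 to 5.53), and at 68.0 and 235 CPM in RP3, 3.45-fold lower (2.40 to 4.95). Marcksl1, a regulator of the actin cytoskeleton, was 2.75-fold lower in FP1 (1.99 to 3.83) and 4.25-fold lower in RP3 (3.56 to 5.07). Rasgef1b, a gene induced by Toll-like receptors, was 4.17-fold lower in FP1 (2.53 to 7.07) and 2.80-fold lower in RP3 (1.78 to 4.37). Gm6377 and Slc43a2, an amino acid transporter, were 3.62-fold and 2.67-fold lower in FP1 and 2.79-fold and 2.72-fold lower in RP3. Ccl4, a chemokine, was 2.68-fold and 2.25-fold lower, but 1 cell gave 40.2% of its UMIs in UBM cells of FP1 and another gave 40.4% in saline cells of RP3. Of the 35 genes, 27 stayed past 2-fold in both clusters without each gene's top cell when no minimum level was asked. With the minimum of 50 CPM, 26 kept the group, and with trimmed-mean scaling 21 remained in it. Rps27rt and Rpl36-ps3 share reads with ribosomal protein genes, and Tsix overlaps the antisense gene Xist, so their levels are uncertain.

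The promoter of Btg2 is shown because it was 1 of 3 among the 32 listed promoters of shared lower genes that held TGACGTCA, the cyclic AMP response element, which is read the same on both strands. It follows the layout given above, with the element in capitals.
Btg2 promoter (chr1:134079106-134079405, minus strand): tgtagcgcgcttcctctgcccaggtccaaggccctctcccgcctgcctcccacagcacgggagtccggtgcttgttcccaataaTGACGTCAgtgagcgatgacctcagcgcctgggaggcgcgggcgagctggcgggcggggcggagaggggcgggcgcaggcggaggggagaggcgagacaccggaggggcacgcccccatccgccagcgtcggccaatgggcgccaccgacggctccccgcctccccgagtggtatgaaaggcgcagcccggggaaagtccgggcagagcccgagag
The element began at -166 from the start. It was found in 1.79% of all listed promoters, in 3.136% of those of genes with 50 CPM in both clusters and in 9.375% of those of the shared lower genes, a share that rests on 3 matches. The listed promoters of Nr4a1, Nr4a2, Atf3 and Cebpb did not hold it in this window. Of the 21 promoters of shared higher genes 1 held it (4.762%), that of Mif, where it is not marked in the sequence above.

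The genes higher in FP1 alone included Ccl24, Mt2, Mrc1 and Clec10a, which RP3 cells held at like levels in both libraries. Ccl24 encodes eotaxin-2, which draws eosinophils (chr5:135569937-135573049, minus strand). In FP1 it stood at 676 CPM in UBM and 12.3 CPM in saline, the latter from 6 UMIs, 55.0-fold higher (25.1 to 151). In RP3 it stood at 584 and 648 CPM, a ratio of 0.902 (0.760 to 1.08), so the fold in FP1 was 60.9 times that in RP3 (27.1 to 170). Mt2, a metallothionein that binds zinc, stood at 1036 and 69.6 CPM in FP1, 14.9-fold higher (10.6 to 21.6), and at 629.6 and 655 CPM in RP3. Its relative Mt1 was 2.47-fold higher in FP1 and stood at 3607 and 3298 CPM in RP3. Mrc1, the mannose receptor CD206 (chr2:14229392-14332057, plus strand), stood at 557 and 152 CPM in FP1, 3.68-fold higher (2.87 to 4.77), and at 1502 and 1485 CPM in RP3, a fold 3.63 times apart between the clusters (2.76 to 4.83). Clec10a, another C-type lectin of alternative activation, stood at 76.9 and 26.6 CPM in FP1 and at 873 and 934 CPM in RP3. For each of these 5 genes the saline level in FP1 was below both levels in RP3.

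The same FP1 group held Ccl7, a chemokine for monocytes, at 849.5 and 197 CPM, 4.32-fold higher (3.49 to 5.41), against 2592 and 3473 CPM in RP3. Pf4, platelet factor 4, stood at 4918 and 1968 CPM in FP1, 2.50-fold higher (2.33 to 2.69), and at 2999 and 2911 CPM in RP3. Hmox1, the haem-degrading enzyme, stood at 362 and 111 CPM in FP1, 3.27-fold higher (2.44 to 4.46), and at 484 and 674 CPM in RP3. Tmem8 and Tppp3, the latter a tubulin-binding protein, completed the named genes, with Tmem8 at 50.4 and 4.09 CPM in FP1, the latter from 2 UMIs, a ratio of 12.3 (3.19 to 105). Over the list of chemokines of resident macrophages, 8 of 9 measured genes were at least 1.5-fold higher in FP1, where 18.8% of all genes were, with a median log2 ratio of 1.45. In RP3 4 of 10 were higher and 2 lower, against 18.2% and 32.0% of all genes, with a median of -0.02 that became 0.21 with the trimmed mean.

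Genes of antigen presentation by class II molecules of the major histocompatibility complex were lower with UBM in FP1 and lay closer together in RP3. H2-Ab1 encodes the beta chain of the I-A molecule (chr17:34257689-34269419, plus strand). It stood at 611 CPM in UBM and 2938 CPM in saline cells of FP1, 4.81-fold lower (4.33 to 5.34), and at 1814 and 2297 CPM in RP3, 1.27-fold lower, so that the folds differed 3.79 times (3.30 to 4.37). H2-Eb1 stood at 466 and 2336 CPM in FP1, 5.01-fold lower (4.45 to 5.65), and at 1348 and 1392 CPM in RP3. Cd74, the invariant chain that guides these molecules, stood at 2165 and 9074 CPM in FP1, 4.19-fold lower (3.96 to 4.43), and at 5646 and 6247 CPM in RP3. H2-Aa, the alpha chain of I-A, was 4.92-fold lower in FP1 and 1.54-fold lower in RP3, just past the limit of 1.5-fold that keeps a gene in the group. Over the class II list 10 of 11 measured genes were at least 1.5-fold lower in FP1, where 22.3% of all genes were, with a median log2 ratio of -1.52. In RP3 3 of 11 were lower and 1 was higher, where 32.0% of all genes were lower, and the median of -0.15 turned to 0.09 with the trimmed mean. The lower level was not particular to FP1. The summed level of the list was 8067 CPM in UBM and 21991 CPM in saline cells of FP1 and 14156 and 14813 CPM in RP3. It was also lower with UBM in the other 6 clusters that held saline cells, for example at 29476 against 58083 CPM in R1, 28226 against 52176 CPM in F1 and 4109 against 8692 CPM in RP1. The saline side of some of these was thin. RP1 held 13 saline cells, of which 11 were over 10% mitochondrial UMIs, and F2 held 3 saline cells.

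Other genes lower with UBM in FP1 included Il1b and Lyz2. Il1b, interleukin-1 beta (chr2:129364570-129371139, minus strand), stood at 56.7 and 418 CPM in FP1, 7.36-fold lower (5.31 to 10.4), and at 55.6 and 37.2 CPM in RP3, the latter from 10 UMIs. Lyz2, lysozyme, stood at 4270.4 and 19397 CPM in FP1, 4.54-fold lower (4.37 to 4.73), and at 8964 and 12881 CPM in RP3, 1.44-fold lower. Lyz2 is itself a macrophage marker, and 5 of the 10 such markers were at least 1.5-fold lower with UBM in FP1 (22.3% of all genes) and none higher. Whether the FP1 cells of the 2 libraries differ in kind was not tested. Ms4a6c stood at 129.8 and 674 CPM in FP1 and at 429 and 577 CPM in RP3. Aif1, a calcium-binding protein of macrophages, stood at 132 and 592 CPM in FP1 and at 346 and 324 CPM in RP3. Ccrl2, a receptor for chemerin, was 5.44-fold lower in FP1. Apoe, apolipoprotein E, stood at 3354 and 11866 CPM in FP1, 3.54-fold lower (3.38 to 3.71), and at 28828 and 29947 CPM in RP3. Cx3cr1, the fractalkine receptor (chr9:119901616-120069879, minus strand), did not reach 50 CPM in RP3, where it stood at 5.15 and 3.72 CPM. In FP1 it stood at 5.04 CPM in UBM, from 4 UMIs, and 264 CPM in saline, 52.4-fold lower (19.97 to 195).

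**Figure D3:**
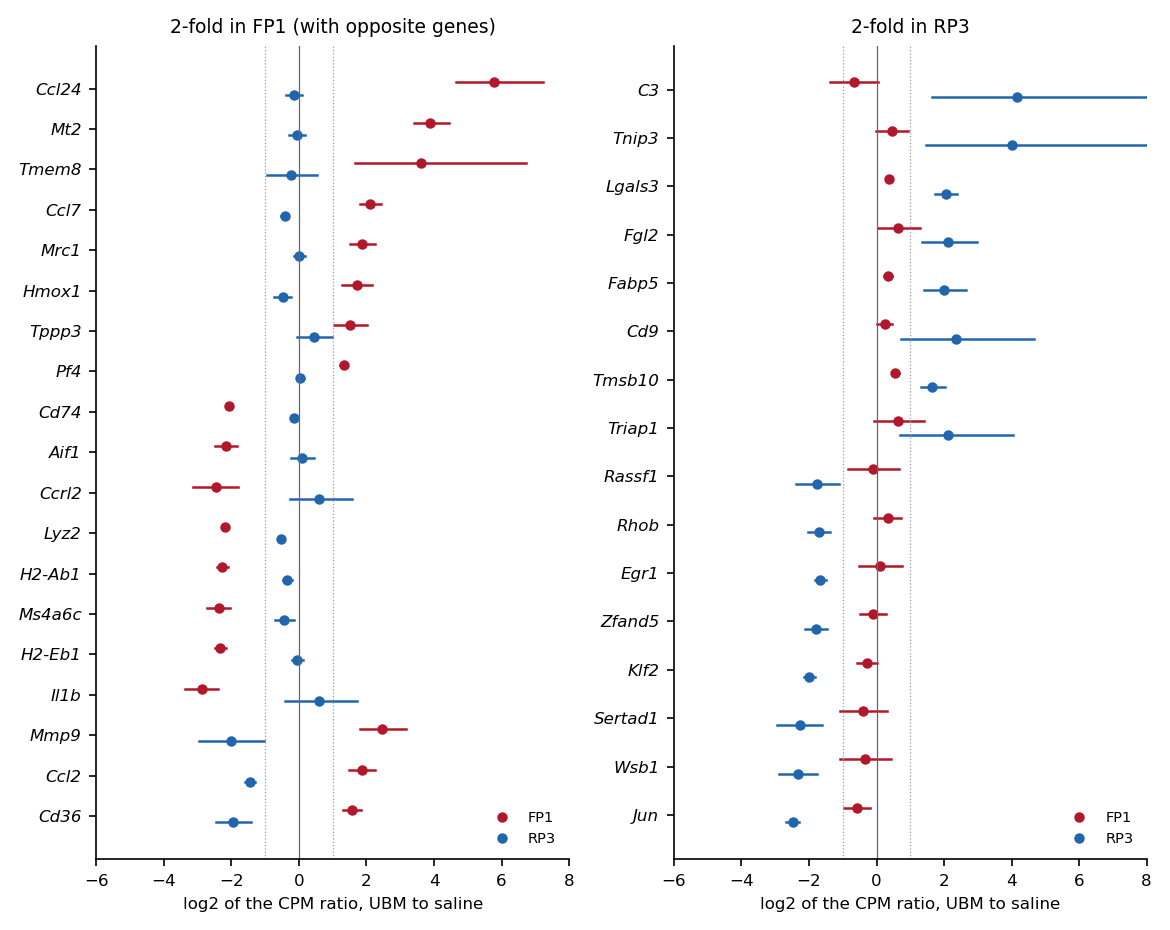
Log2 ratio of UBM to saline CPM with nothing added, in FP1 and RP3, for the named genes of FP1 alone and the 3 opposite genes (left) and of RP3 alone (right); bars are the exact 95% counting interval, and those of C3 and Tnip3 are clipped at the right edge. Ccl24 lies far to the right in FP1 and near 0 in RP3, Jun lies farthest to the left in RP3, and the grouping itself follows from the rule of size.

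The genes higher with UBM in RP3 alone included several known from lipid-laden and phagocytic macrophages. Lgals3, galectin-3 (chr14:47367751-47386160, plus strand), stood at 1300.5 CPM in UBM and 313 CPM in saline cells of RP3, 4.16-fold higher (3.33 to 5.25), and at 6810.2 and 5264 CPM in FP1, so that the folds differed 3.21 times (2.56 to 4.08). Fabp5, a fatty acid binding protein, stood at 372 and 93.1 CPM in RP3, 3.997-fold higher (2.66 to 6.26), and at 2292 and 1818 CPM in FP1. Trem2, the lipid-sensing receptor, stood at 639.9 and 287 CPM in RP3, 2.23-fold higher (1.76 to 2.87), and at 752 and 532 CPM in FP1. Cd9, a tetraspanin, stood at 56.7 and 11.2 CPM in RP3, the latter from 3 UMIs, a ratio of 5.07 (1.65 to 25.4), and at 644 and 547 CPM in FP1. Of the lipid and Trem2 list, 13 of 21 measured genes were at least 1.5-fold higher in RP3 and 2 lower, against 18.2% and 32.0% of all genes, with a median log2 ratio of 0.90. In FP1 7 of 22 were higher and 1 lower, against 18.8% and 22.3%, with a median of 0.19. Gpnmb, in that list, was high in RP3 through 1 cell, which gave 62.5% of its UBM UMIs.

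C3, complement component 3 (chr17:57203970-57228136, minus strand), stood at 66.98 CPM in UBM and 3.72 CPM in saline cells of RP3, the latter from 1 UMI, a ratio of 18.0 (3.12 to 721), and at 45.4 and 71.7 CPM in FP1. Tnip3, an inhibitor of NF-kappaB signalling, also rested on 1 saline UMI in RP3, with 59.8 CPM in UBM and a ratio of 16.1 (2.77 to 645). Fgl2, a fibrinogen-like protein, stood at 240.1 and 55.8 CPM in RP3, 4.30-fold higher (2.55 to 7.81), and at 102 and 65.5 CPM in FP1. Tmsb10, which binds actin monomers, stood at 879 and 279 CPM in RP3, 3.15-fold higher (2.48 to 4.04). Triap1 had 64.9 CPM in UBM and 14.9 CPM in saline cells of RP3. Ctss and Ctsz, lysosomal cathepsins, were 2.12-fold and 2.35-fold higher in RP3. Over the list of lysosomal genes 8 of 23 were at least 1.5-fold higher there and none lower, against 18.2% and 32.0% of all genes, and the median log2 ratio was 0.39. In FP1 3 of 24 were higher and 4 lower, against 18.8% and 22.3%. The nuclear genes of the respiratory chain showed 10 of 23 higher in RP3 (18.2% of all genes) with a median of 0.50, and 1 of 23 in FP1 (18.8% of all genes) with a median of 0.17. The RP3 group of higher genes grew from 50 to 101 with the trimmed mean, and 41 genes were in both. Of the 8 named genes of this group, 5 kept it with the trimmed mean and 3 with each cell counted alike or without cells over 3 times the median UMIs.

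The genes lower with UBM in RP3 alone included immediate early genes. Jun, a subunit of the AP-1 transcription factor (chr4:95049034-95052222, minus strand), stood at 382 CPM in UBM and 2129 CPM in saline cells of RP3, 5.57-fold lower (4.88 to 6.36). In FP1 it stood at 159 and 237 CPM, 1.495-fold lower, so that the folds differed 3.72 times (2.77 to 4.9995). Egr1, a zinc finger factor, stood at 623 and 1969 CPM in RP3, 3.16-fold lower (2.81 to 3.56), and at 76.9 and 71.7 CPM in FP1. Klf2, a factor that restrains inflammatory activation, stood at 599.7 and 2394 CPM in RP3, 3.99-fold lower (3.56 to 4.47), and at 289 and 352 CPM in FP1. Rhob, a small GTPase, stood at 169 and 547 CPM in RP3, 3.24-fold lower (2.57 to 4.07). Wsb1, Sertad1, Zfand5 and Rassf1 were 4.97-fold, 4.82-fold, 3.47-fold and 3.37-fold lower in RP3. Jund and Junb, further AP-1 subunits, were 2.60-fold and 2.02-fold lower.

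Early response and heat shock genes also rise when tissue is dissociated into cells. Over that list 22 of 23 measured genes were at least 1.5-fold lower with UBM in RP3, where 32.0% of all genes were, with a median log2 ratio of -1.37, and -1.15 with the trimmed mean. In FP1 8 of 23 were lower, where 22.3% of all genes were, and none higher, with a median of -0.36. Hspa1a, a heat shock chaperone, stood at 27.8 and 219.7 CPM in RP3, 7.89-fold lower (4.93 to 12.95), and at 26.5 and 26.6 CPM in FP1. Dnajb1, its co-chaperone, was 6.30-fold lower in RP3. The labels do not state how long the 2 libraries were sorted and dissociated, so handling and treatment cannot be told apart for these genes. Of the shared lower genes, Atf3, Btg2, Nr4a1 and Nr4a2 are in the same list. Transcripts of muscle fibre were lower too: all 10 of those measured were at least 1.5-fold lower with UBM in RP3 (32.0% of all genes). Their summed level was 63.9 CPM against 376 CPM in saline. In FP1 the sum was 22.7 against 63.5 CPM. It was lower with UBM in every cluster with saline cells, for example at 392 against 4904 CPM in R3. In RP2 it stood at 15.5 against 121 CPM. The early response list stood higher with UBM in RP2, at 8917 against 8138 CPM, and in F2, which held 3 saline cells. It was lower with UBM in all other clusters with saline cells, for example at 7747 against 9316 CPM in R3. The part of muscle fibre RNA in the result was not tested.

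The 3 genes that went opposite ways were Cd36, Ccl2 and Mmp9, each higher with UBM in FP1 and lower in RP3. Cd36, the scavenger receptor for oxidised lipids (chr5:17781690-17888801, minus strand), stood at 895 CPM in UBM and 303 CPM in saline cells of FP1, 2.95-fold higher (2.47 to 3.55). In RP3 it stood at 66.0 and 253 CPM, 3.84-fold lower (2.69 to 5.49), and the folds differed 11.3 times (7.57 to 17.0). Ccl2, the ligand of Ccr2, was outside the rule for named genes and was chosen after its values were seen. It stood at 512 and 141 CPM in FP1, 3.62-fold higher (2.80 to 4.75), with 30.8% of the UBM UMIs and 33.3% of the saline UMIs in 1 cell each, and at 829.5 and 2264 CPM in RP3, 2.73-fold lower (2.45 to 3.04). Mmp9, gelatinase B, stood at 247 and 45.0 CPM in FP1 and at 19.6 and 78.2 CPM in RP3. In FP1 1 cell gave 90.9% of its saline UMIs, and without each library's top cell the log2 ratio was 3.88 in place of 2.22. Mmp9 also marks neutrophils. The summed level of the 10 neutrophil markers, Mmp9 among them, was 295 CPM in UBM and 119 CPM in saline cells of FP1, and 86.6 and 153 CPM in RP3. In FP1 the same 4 of the 10, Retnlg, Ly6g, Cxcr2 and G0s2, were at 0 in both libraries and the others were detected. The part of neutrophil RNA in the result was not tested.

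**Figure D4:**
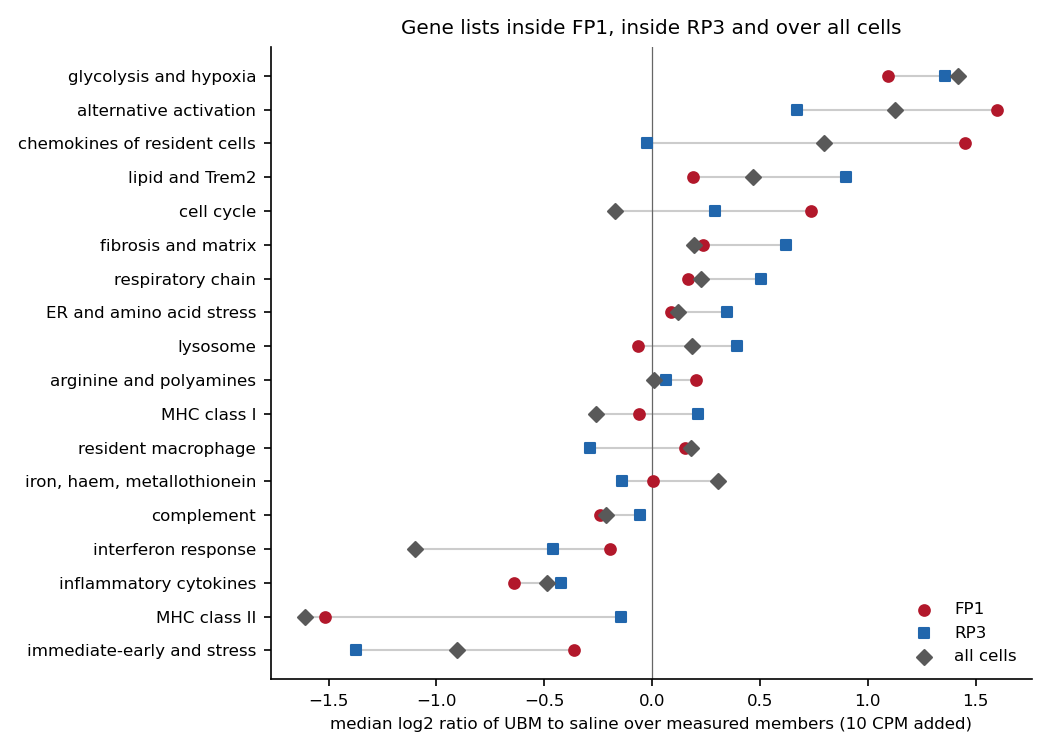
Median log2 ratio of UBM to saline, with 10 CPM added, of the measured members of 18 gene lists in FP1, in RP3 and over all cells. The glycolysis and hypoxia list lies above 1 in all 3, the class II list lies at -1.52 in FP1 and at -0.15 in RP3, where it turns to 0.09 with trimmed-mean scaling, and 5 of the 18 lists have medians of at least 0.25 in size with the same sign in both clusters. The cell cycle list is among these, and its RP3 median of 0.29 turned negative without cells over 3 times the median UMIs.

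Of 25 cell cycle genes measured in FP1, 17 stood at least 1.5-fold higher with UBM and none lower, against 18.8% and 22.3% of all genes, with a median log2 ratio of 0.74. Ube2c, a ubiquitin-conjugating enzyme of mitosis, stood at 122 and 10.2 CPM in FP1, and Top2a, the topoisomerase of dividing cells, at 107 and 28.7 CPM. In RP3 6 of 16 were higher and 3 lower, against 18.2% and 32.0% of all genes, and the median of 0.29 turned to -0.45 without cells over 3 times the median UMIs. Inflammatory cytokines were mixed in both clusters, with 6 of 19 higher and 10 lower in FP1, and 5 higher and 9 lower of 19 in RP3. The shares of all genes were 18.8% and 22.3% in FP1 and 18.2% and 32.0% in RP3. Tnf stood at 2.06 and 40.95 CPM in RP3, the former from 2 UMIs, and at 12.6 and 38.9 CPM in FP1. Il1rn, the antagonist of the interleukin-1 receptor, was 2.74-fold lower in FP1 and 2.61-fold lower in RP3. Il1f9, which encodes the interleukin-36 gamma of the series title, had 0 UMIs in all 4 groups of cells. Of the markers of resident macrophages, Lyve1 stood at 240.1 and 432 CPM in RP3, 1.80-fold lower (1.43 to 2.26), and Cd209d at 413 and 149 CPM, 2.77-fold higher (2.002 to 3.94). Over the resident macrophage list, 2 of 18 measured genes were higher in RP3 and 5 lower, against 18.2% and 32.0% of all genes. The median log2 ratio there was -0.29. In FP1 5 of 12 were higher and 2 lower, against 18.8% and 22.3%.

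The summed difference between the libraries also depends on how their cells were spread over the clusters. FP1 gave 5.44% of the UMIs of the UBM library and 25.9% of those of the saline library, and RP3 gave 6.65% and 14.2%. Cluster RP1 gave 18.3% and 1.62%, F1 gave 1.89% and 18.6%, and R2 gave 14.8% with no saline cell. Over all cells 107 of 2753 genes were at least 2-fold higher with UBM (3.89%) and 171 were lower (6.21%). Of the 60 higher genes that reached 50 CPM in both clusters, 22 were past 2-fold in both, 17 in FP1 only, 12 in RP3 only and 9 in neither. Of the 98 such lower genes, 30 were past 2-fold in both, 34 in FP1 only, 16 in RP3 only and 18 in neither. The CPM difference of each gene was split into a part from the clusters' shares of UMIs and a part within clusters. The share of the difference that came from the cluster shares had a median of 18.2% for the higher and 20.7% for the lower genes.

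Genes past 2-fold over all cells but under 1.5-fold in both FP1 and RP3 numbered 4 higher (0.182% of 2202) and 1 lower (0.0454%). The higher ones were Osbpl8, an oxysterol-binding protein relative at 150.5 and 51.9 CPM over all cells, Card19 at 330.2 and 153 CPM, Mgst1, a glutathione transferase at 172 and 80.5 CPM, and Hist1h2bc, a histone at 346 and 168 CPM. The lower one was Lsp1, an actin-binding protein of leukocytes, at 112 and 283 CPM over all cells, 69.3 and 109 CPM in FP1, and 79.3 and 81.9 CPM in RP3. For none of these genes did cluster shares give more than 50% of the difference. More than 50% of the difference came from cluster shares for 6 of the higher genes. They were Cd163, Gja1, Chchd10, Ccl24, Ednrb and Il4ra. Cd163, the haemoglobin scavenger receptor, stood at 332 and 77.8 CPM over all cells and at 487 and 499 CPM in RP3, and 87.9% of its difference came from cluster shares.

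On the lower side 15 genes drew over 50% of their difference from cluster shares. Among them were Rsad2, Isg15, Ifit1, Rtp4, Zbp1, Ifit3, Cxcl10 and Oasl2, which are known to be induced by interferon. For Rsad2, Isg15 and Ifit1 the part from shares was 163%, 143% and 106% of the difference, so that within clusters the summed difference ran the other way. Over the interferon list the summed level was 4488 CPM in UBM and 6769 CPM in saline over all cells, and 75.7% of the difference of -2281 CPM came from cluster shares. Inside the clusters this list stood at 2908 and 3429 CPM in FP1 and at 9019 and 11019.7 CPM in RP3. The list stood highest in F1, at 11687 CPM in UBM and 14092 CPM in saline. Its members at least 1.5-fold lower were 23 of 28 over all cells, 9 of 23 in FP1 and 12 of 25 in RP3, against 18.5%, 22.3% and 32.0% of all genes. Single members were apart inside the clusters. Irf1, an interferon regulatory factor, stood at 58.7 and 290.4 CPM in RP3, 4.94-fold lower (3.47 to 7.08), and Cxcl9, a chemokine induced by interferon gamma, at 11.3 and 96.2 CPM in FP1, 8.48-fold lower (4.11 to 19.7). By the same split, cluster shares gave 29.9% of the class II difference, 11.8% of the glycolysis and hypoxia difference and 34.0% of that of the early response list. Of the glycolysis and hypoxia difference of 6746 CPM, 833 CPM lay within FP1 and 262 CPM within RP3. The remainder within clusters includes RP1, at 17149.5 CPM in UBM and 1699 CPM in saline. Saline had only 13 cells there, with a median of 42.7% mitochondrial UMIs. Of the glycolysis and hypoxia list, 27 of 30 measured genes were at least 1.5-fold higher over all cells, where 9.50% of all 7296 genes were.

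**Figure D5:**
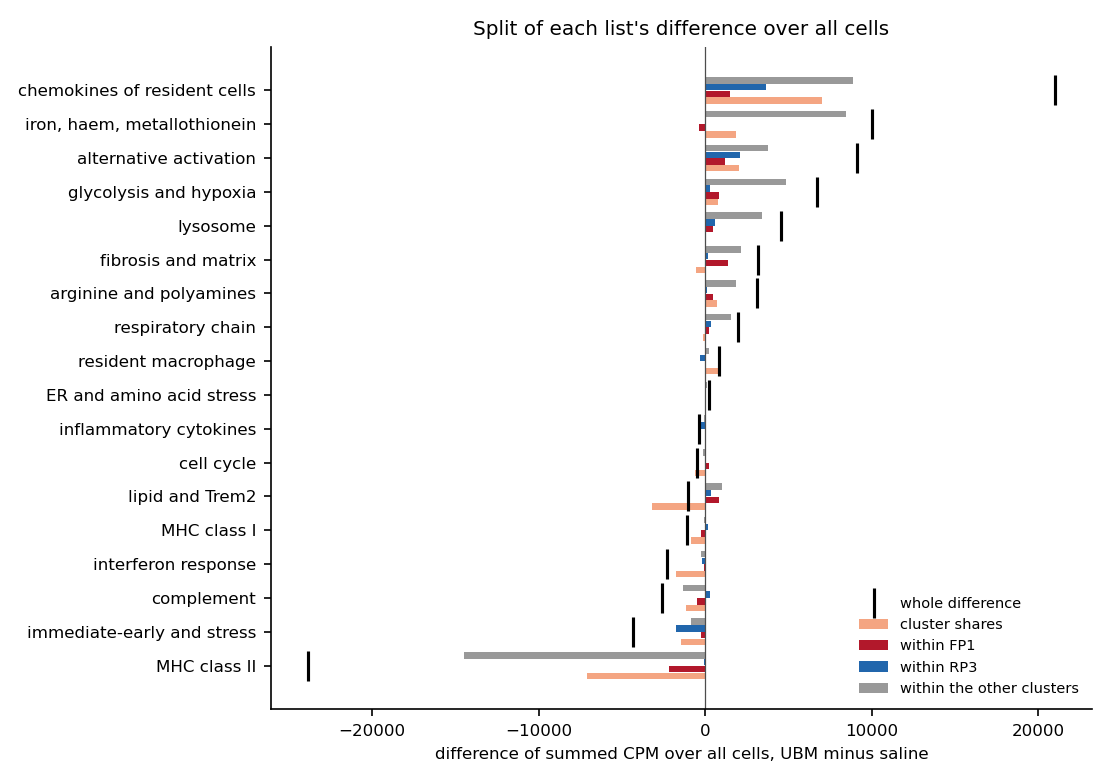
Difference between UBM and saline in the summed CPM of gene lists over all cells, split into the part from the clusters' shares of UMIs and the parts within FP1, within RP3 and within the other clusters. The interferon list draws 75.7% of its difference from cluster shares and the glycolysis and hypoxia list 11.8%.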

How the data were processed

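Raw UMI counts, deposited by the authors as whole numbers of at most 1880, were read for 13242 genes and 4374 cells. A second table gives each cell's condition and cluster as the authors named them. The condition names for UBM, saline and PCL were matched to the labels by meaning. Per the labels' protocols, libraries were made with the 10x 3' kit, and per the submitters' processing notes they were processed with Cell Ranger and Seurat 2. Those notes name the human build hg38, while symbols in the table are of mouse genes. Neither notes nor labels state the version of Cell Ranger, the filters on cells and genes, or how doublets were treated, and no doublet caller was run. Of the symbols, 12831 (96.9%) were found in GENCODE M21 on GRCm38, which gave positions.

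UMIs were summed per gene, library and cluster and divided by the sum of all UMIs to give CPM. Levels have exact Poisson and ratios exact conditional binomial 95% intervals. Genes of both clusters had 50 CPM in the higher library of each. Named genes were, without mitochondrial and ribosomal protein genes and those with over 25% of the UMIs of a cluster's higher library in 1 cell, the 12 highest and 12 lowest shared genes by the smaller log2 ratio, the 8 highest and lowest of each cluster, the opposite and the all-cell genes, the highest and lowest members of each list, and 18 genes set at any value. Further members of a group or list were chosen for their known roles after their values were seen. 1 shared higher gene is not named here. List members needed 10 CPM in 1 library and were counted at 1.5-fold. The members, the 18 programme lists and the 14 marker lists were chosen with earlier results of these data known.

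The split of all-cell differences used the mean of both libraries as weights, and R2, without a saline cell, counted wholly as share. Thinning drew 2500 UMIs per cell. Alternatives were other scalings (edgeR 4.0.16 in R 4.3.3 for the trimmed mean), a pseudocount of 1 CPM, other minima, each cell alike, and leaving out cells. The rule that sorts genes into groups was checked on simulated counts with known changes, which is no test of these data. Python 3.11.15, numpy 2.4.6, scipy 1.17.1 and pandas 2.3.3 were used.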

Additional observations from a re-analysis of the deposited data

Results flagged for a closer look

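The 3 genes for which UBM cells stood on opposite sides of saline cells in the 2 clusters were set apart for a closer look, and the difference between the clusters was not tested, since each side is 1 library. Mmp9 had a log2 ratio of 2.22 in FP1 and -1.58 in RP3. Cd36 had 1.53 in FP1 and -1.79 in RP3. Ccl2 had 1.79 in FP1 and -1.44 in RP3. For Mmp9, 1 saline cell of FP1 gave 90.9% of the UMIs in the lower library there, and the log2 ratio was 3.88 without each library's top cell. For Ccl2, 1 cell gave 30.8% of the UMIs in UBM cells of FP1.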

How the results depend on the processing

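No paired analysis was possible because each treatment has 1 library. For the same reason no library could be left out. The depth of saline cells in RP3, 268609 UMIs, limits what can be said of them. Of the counts of genes and lists, 104 values stayed within 1.5 times the main count and 64 moved beyond it. The cause was not tested. With the trimmed mean, RP3 had 207 higher and 127 lower genes, the shared lower group held 21, RP3 alone 101 higher and 20 lower, and the all-cell groups outside both clusters 2 and 2. With the median of ratios these were 224 and 125, 20, 112 and 21, and 2 and 2, and 8 lists had medians of the same sign and at least 0.25 in both clusters. Scaling without mitochondrial, ribosomal and Malat1 counts gave 36 higher in FP1 alone, 70 lower in RP3 alone, 5 opposite and 3 all-cell lower genes. Counting each cell alike gave 64 lower in RP3 alone, 6 opposite and 4 all-cell lower genes. A pseudocount of 1 CPM gave 54 shared lower, 65 lower in RP3 alone, 5 opposite and 0 all-cell lower genes. A minimum of 20 CPM gave 196 and 273 in FP1, 206 and 381 in RP3, 59 shared lower, 48 and 91 in FP1 alone, 108 and 113 in RP3 alone, 5 opposite, and 8 and 6 all-cell genes. Without a minimum these were 256 and 308, 314 and 466, 47 shared higher and 67 shared lower, 127 and 161, 194 and 270, 6, and 11 and 15. Thinned cells gave 235 and 326 in FP1, 182 and 331 in RP3, 59 and 101 in FP1 alone, 84 higher in RP3 alone, 6 opposite, and 1 and 4 all-cell genes. Leaving out each gene's top cell gave 2 all-cell higher genes. Of the alternatives chosen after seeing the data, leaving out cells over 3 times the median UMIs gave 1, and subtracting the rest of the library gave 76 lower in FP1 alone. Leaving out cells over 10% mitochondrial moved none of these counts past 1.5 times. The cell cycle median in RP3 turned from 0.29 to -0.11 with each cell alike, to -0.019 without top cells and to -0.45 without cells of high UMIs, and Ccl8 in FP1 came to -3.91 on subtraction by construction, since its own level set the amount. Of the 12 named shared higher genes, all 12 kept their group under each setting but the subtraction, where 11 did, and of the 12 shared lower genes all did but when thinned, where 11 did. Of the 8 named genes of each 1-cluster group, at least 7 kept it for FP1 higher, at least 6 for FP1 lower, at least 3 for RP3 higher and at least 5 for RP3 lower. The whole groups were less stable than the named shared genes, which have the largest ratios. Thinning kept 17 of 24 shared higher and 23 of 35 shared lower genes. It kept 14 of 22 higher and 32 of 48 lower in FP1 alone, and 23 of 50 and 18 of 41 in RP3 alone. Counting each cell alike kept 19 of 24 shared higher and 23 of 35 shared lower genes.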

Other observations

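Matrix-degrading enzymes of macrophages and an inhibitor stood apart in FP1. Mmp13, a collagenase, stood at 289.9 CPM in UBM and 12.3 CPM in saline cells of FP1, 23.6-fold higher (10.7 to 65.0), and at 8.24 and 3.72 CPM in RP3, near the floor of counts there. Mmp12, macrophage elastase, stood at 2302 and 471 CPM in FP1, 4.89-fold higher (4.26 to 5.63), with 30.9% of the saline UMIs in 1 cell. Ctsk, the collagen-cleaving cathepsin K, stood at 355 and 30.7 CPM in FP1, 11.6-fold higher (6.90 to 20.96). Timp1, an inhibitor of metalloproteinases, stood at 182 and 14.3 CPM in FP1, 12.7-fold higher (5.99 to 32.1), and at 43.3 and 3.72 CPM in RP3, the latter from 1 UMI, a ratio of 11.6 (1.98 to 470). Over the list of matrix and fibrosis genes, 12 of the 24 measured in FP1 were at least 1.5-fold higher and 7 lower, against 18.8% and 22.3% of all genes. In RP3 12 of 19 were higher and 1 lower, against 18.2% and 32.0%. Tgfb1, the cytokine most tied to fibrosis, stood at 164 and 227 CPM in FP1 and at 185 and 182 CPM in RP3.

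Genes of iron handling and protein folding showed other patterns. Tfrc, the transferrin receptor, stood at 44.1 and 14.3 CPM in FP1, 3.08-fold higher (1.35 to 8.21), and at 80.4 and 11.2 CPM in RP3, the latter from 3 UMIs, a ratio of 7.197 (2.37 to 35.7). Slc40a1, the iron exporter ferroportin, had 0 UMIs in FP1 of both libraries and stood at 12.4 and 78.2 CPM in RP3. Over the list of iron, haem and metallothionein genes, 5 of 16 measured were at least 1.5-fold higher in FP1 and 3 lower, against 18.8% and 22.3% of all genes. In RP3 1 of 18 was higher and 6 were lower, against 18.2% and 32.0%. Manf, a secreted protein of the stressed endoplasmic reticulum, was 1.66-fold higher with UBM in FP1 (1.25 to 2.21) and 3.04-fold higher in RP3 (1.88 to 5.24). C1qa and C1qb, chains of complement C1q, stood at 1511 and 2586 CPM and at 2026 and 3018 CPM in FP1, but at 6843 and 5368 CPM and at 6579.6 and 4683 CPM in RP3.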
